A study of Danio rerio with 12 samples.

Results

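The mnx1 locus was examined in ATAC-seq peak lists of zebrafish embryos at the 3-somites stage. ATAC-seq uses a transposase that cuts DNA where nucleosomes leave it free, and a peak marks a place where such cuts pile up. Overlapping peaks of the 12 lists (1 bp or more) were joined into regions, and the members are the regions that reach into a window of 50 kb on each side of the mnx1 transcription start site (TSS) on chromosome 7 (Zv9 assembly, 41981015 to 42081015). This gave 22 regions of 245646 in the whole series. The gene itself lies from 42031015 to 42033352.

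All embryos came from Tg(sox17:GFP) fish, in which the sox17 promoter marks the endoderm with GFP. The groups are sorted sox17:GFP+ endodermal cells of embryos that received 1 µM retinoic acid (RA), 1 µM BMS493 or 0.1% DMSO, the solvent, from the 2-cell stage on, and sox17:GFP- non-endodermal (NE) cells of the DMSO embryos, with 3 samples each. NE is thus a mixture of all other tissues of the embryo. In such sorted pools, a site that is open in more cells and a site that is cut more often per cell cannot be told apart. The lists hold no expression, so the sort could not be checked against marker transcripts here.

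Mnx1 is a homeodomain transcription factor that is best known for its part in motor neurons and in the pancreas, where the β-cell lineage depends on it in zebrafish and mouse. RA acts through nuclear receptors, the RARs, which sit on DNA with an RXR partner, and BMS493 is an inverse agonist that holds RARs in their repressing state. The study listed a RAR binding site downstream of mnx1, and the region that overlaps it is called the RAR-site region here. The paper describes the site as lying where nucleosomes are absent in endoderm alone. Its reporter fish with this element showed GFP in posterior endoderm and dorsal pancreas, slightly raised by RA and lost with BMS493. By its RNA-seq of endodermal cells, RA induced mnx1, while BMS493 did not significantly repress it. In the peak lists, NE samples called the RAR-site region too, as given below. Further downstream and in the opposite orientation lies nom1, which encodes a nucleolar protein, and upstream lies ube3c, which encodes a ubiquitin ligase.

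The lists came from 18928561 to 32052207 tags per sample, of which 11056595 to 22930744 remained after removal of duplicates, and held 51301 to 143755 peaks. The shortest list, of DMSO replicate 1, stands apart from the other DMSO lists, which held 110584 and 121433 peaks. Height is given as the pileup, a tag count at the summit after extension of the tags, and as its percentile rank within its own list, where 0 stands for a region without a peak. A region without a peak is not thereby closed, since signal under the threshold of the peak caller is not listed. A peak could reach a pileup of 160 at most, and the members stayed well under this limit.

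The 22 members were unevenly spread and fell into few that every sample called and many that some samples called. Of them, 5 were called in all 12 samples (22.7%, against 11.6% of all regions), 4 were called in 1 sample (18.2%, against 36.2%) and 17 in at least 3 samples (77.3%, against 51.7%). The number of regions was within the usual range for 100 kb, since 100-kb bins of chromosomes 1 to 25 held a median of 17 regions with quartiles of 12 and 22. A sample called 14 to 16 members with RA, 9 to 12 with BMS493, 7 to 15 with DMSO and 10 to 13 in NE. The low end of the DMSO range was replicate 1, with the shortest list.

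**Figure D1:**
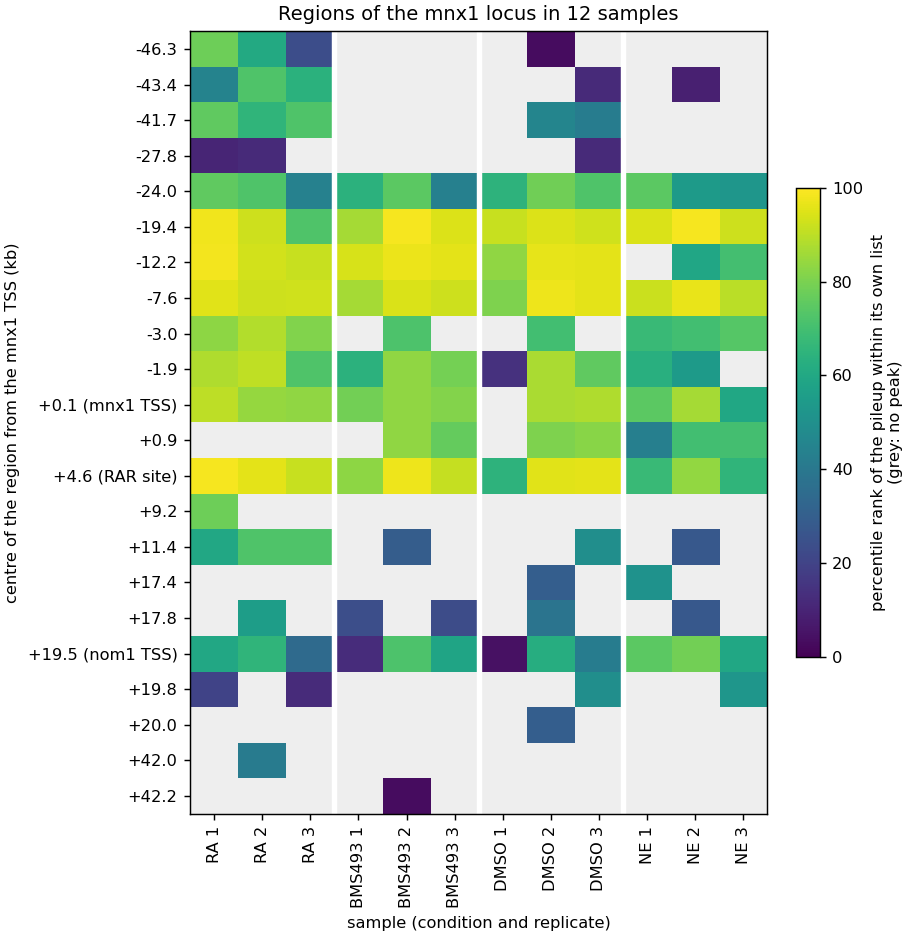
Percentile rank of the pileup (colour, 0 to 100, grey where no peak was called) for each of the 22 regions (rows, distance of the centre from the mnx1 TSS in kb) in each of the 12 samples (columns). The 5 rows without grey are the regions called in all 12 samples, and the top 3 rows are filled in all RA samples and empty in all BMS493 samples.

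The 5 regions called everywhere lie 24.0, 19.4 and 7.6 kb upstream of the TSS, at the RAR site (4.6 kb downstream) and at the nom1 TSS (19.5 kb downstream). The -19.4 kb region (42011300 to 42011847) was among the tallest, with pileups of 46, 28 and 15 in RA, 21, 46 and 28 in BMS493, 22, 32 and 29 in DMSO and 29, 52 and 24 in NE. The 4 conditions overlapped there. The -7.6 kb region (42023203 to 42023617) showed the same overlap, with pileups of 38, 28 and 26 in RA, 21, 33 and 25 in BMS493, 16, 39 and 34 in DMSO and 26, 44 and 21 in NE. The -24.0 kb region (42006844 to 42007220) was lower, with 10 to 19 tags in RA, 10 to 18 in BMS493, 12 to 19 in DMSO and 9 to 16 in NE. At the nom1 TSS (42050396 to 42050721), the pileup was 9 to 14 in RA, 7 to 17 in BMS493, 6 to 14 in DMSO and 10 to 22 in NE. None of these 4 regions passed the limma test in any of the comparisons below, by rank or by log2 height.

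The region over the mnx1 TSS (42030769 to 42031446, 678 bp) was called in every sample but DMSO replicate 1. Its pileup was 29, 21 and 19 in RA, 17, 22 and 18 in BMS493, 24 and 24 in DMSO replicates 2 and 3, and 16, 27 and 10 in NE. Peaks at the TSS of mnx1 were thus present in endoderm and in NE, and the heights overlapped. Endodermal samples averaged a rank of 75.2 ± 28.4 (SD, n = 9) and NE samples 73.7 ± 13.3 (SD, n = 3), a difference of 1.48 points (SE 13.05, limma adjusted p = 0.961). For DMSO against NE the difference was -15.11 (limma adjusted p = 0.681), and without DMSO replicate 1 it was 14.18 (limma adjusted p = 0.252).

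All 5 regions called everywhere had the same call as the TSS region in 11 of 12 samples, which follows from its being called in 11. Among these 5, the RAR-site, -7.6 and -19.4 kb regions had the smallest mean rank differences from the TSS region, with 12.7, 17.4 and 19.3 points. The RAR-site region in turn shared the call in 12 of 12 samples with the other regions called everywhere, again by their selection. Its smallest mean rank differences from them were 7.96, 10.9 and 22.7 points at -7.6, -19.4 and -24.0 kb.

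Endodermal cells of DMSO embryos were compared with NE to ask where the locus differs between the germ layer and the rest of the embryo. The -12.2 kb region (42018530 to 42019000) stood out, with tall peaks in all DMSO samples and low or absent peaks in NE. Its pileup was 17, 36 and 34 in DMSO, against 15 and 12 in NE replicates 2 and 3 and no peak in NE replicate 1. Per 1000000 tags kept, the heights were 1.42, 2.56 and 2.07 in DMSO, against 0.654 and 1.09 in the NE samples with a peak. The samples with a peak did not overlap between the groups on either scale. The share of all regions without such overlap was not counted, so nothing is read from it. The rank averaged 91.9 ± 7.33 in DMSO and 43.1 ± 37.7 in NE (SD, n = 3 each), a difference of 48.79 points (SE 11.81, limma adjusted p = 0.0158). It was the only member of the 17 tested that passed as higher by rank in DMSO against NE, and none passed as lower. Of all 127026 regions tested, 2.16% passed as higher and 4.91% as lower. Differences were positive at 10 members and negative at 7. At an unadjusted p under 0.05, limma gave 1 member higher and 1 lower, beside 5.86% and 12.5% of all regions. The lower one was the -3.0 kb region, with -47.08 points (SE 20.77, limma adjusted p = 0.23). The median difference was 1.08 points over the 17 members and -3.78 over all regions. Without DMSO replicate 2 or 3 the adjusted p of the -12.2 kb region was 0.0739 or 0.0745. Without NE replicate 1, the sample with no peak, the difference was 27.26 points and still passed.

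The same region was tall with RA and with BMS493. Its pileup was 47, 29 and 25 in RA and 28, 39 and 30 in BMS493. All 9 endodermal samples thus lay above the NE samples with a peak, and NE replicate 1 had none. How many of all regions part in this way was not counted. Over all endodermal samples against NE the rank differed by 50.85 points (SE 9.64, limma adjusted p = 0.00153), and this call held without each of the 12 samples in turn, with 29.33 points without NE replicate 1. With peaks in 2 NE samples, the region reached the 3 samples needed for the rank test only with endodermal calls. It passed as well in the fit to all 245646 regions, which sets no such number. Here too it was the only one of 17 members that passed as higher and none passed as lower, beside 3.59% and 8.32% of all regions. The median difference was 4.84 over the members and -3.74 over all regions. Nothing is read from these medians or from the count of members. Of the 17 members, 5 were tested only through RA calls, which are part of the endodermal side. Others, the -12.2 kb region among them, had peaks in fewer than 3 NE samples and so needed endodermal calls too. By presence, no member parted DMSO from NE, where 1.1% of all regions were present in DMSO alone and 2.82% in NE alone, and none parted all endodermal samples from NE, where these shares were 0.443% and 1.4%. Between the endodermal conditions the rank of the -12.2 kb region moved by 2.46 points for RA against DMSO, 3.73 for BMS493 against DMSO and -1.27 for RA against BMS493 (SE 11.81 each, limma adjusted p = 1 in each).

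**Figure D2:**
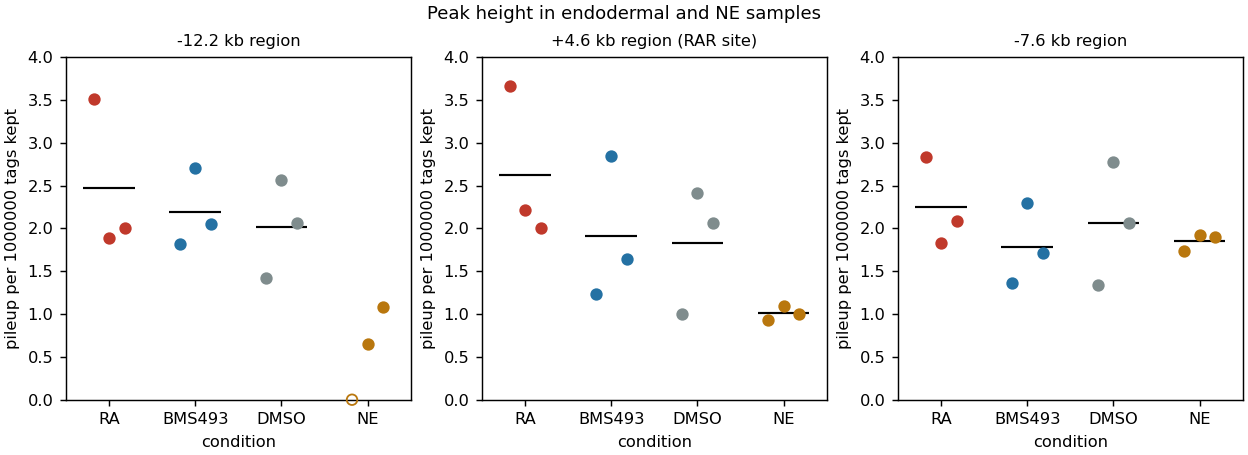
Pileup per 1000000 tags kept (vertical axis) in each sample of the 4 conditions for the -12.2 kb region, the RAR-site region at +4.6 kb and the -7.6 kb region, with the mean as a line where all 3 samples have a peak and an open circle at 0 where no peak was called. All endodermal samples lie above NE at -12.2 kb, 8 of 9 do at +4.6 kb, and the conditions overlap at -7.6 kb. The share of all regions that part in this way was not counted.

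The RAR-site region (42035163 to 42035974, 812 bp, the widest member) was called in all 12 samples and was higher in endoderm. Its pileup was 49, 34 and 25 in RA, 19, 41 and 24 in BMS493, 12, 34 and 34 in DMSO and 14, 25 and 11 in NE. Per 1000000 tags kept, the NE samples lay between 0.936 and 1.09 and the endodermal samples between 1.004 in DMSO replicate 1 and 3.66 in RA replicate 1. Of the endodermal samples, DMSO replicate 1 alone lay within the NE range. The mean per 1000000 tags was 1.82 times as high in DMSO and 2.11 times as high over all endodermal samples as in NE. On the log2 scale, centred on the median of each sample over the 28445 regions called everywhere, the region rose by 0.77 in DMSO against NE (SE 0.20, limma adjusted p = 0.0122) and by 0.94 over all endodermal samples (SE 0.17, limma adjusted p = 0.000137).

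It was the only one of the 5 members called everywhere that passed as higher in height, and none passed as lower. Of all 28445 regions, 7.15% rose and 2.42% fell in DMSO against NE, and 9.89% rose and 4.93% fell over all endodermal samples. The median log2 difference of the 5 members was 0.10 and 0.05 in these comparisons, beside 0.01 and -0.01 over all regions. By rank the region differed by 18.14 points over all endodermal samples against NE (SE 6.04, limma adjusted p = 0.0609), which did not pass. The DMSO result rests on both DMSO replicates 2 and 3 and on NE replicate 3, without which the adjusted p was 0.0818, 0.0888 and 0.0587, and on the centring, without which it was 0.23.

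The RAR-site region held 2 separate peaks in most endodermal samples and 1 in NE. A first peak, with its summit 4243 to 4304 bp from the TSS, was present in 9 of 9 endodermal samples and in 0 of 3 NE samples. Its pileup was 36, 32 and 25 in RA, 19, 23 and 17 in BMS493 and 8, 33 and 21 in DMSO. A second peak, with its summit 4649 to 4785 bp from the TSS, was present in 8 of 9 endodermal samples and in 3 of 3 NE samples, with pileups of 12 to 49 in endoderm and 11 to 25 in NE. In the remaining sample, RA replicate 3, a single peak of 720 bp spanned both and is counted as the first by its summit. All 11 summits of the second peak lay inside the listed RAR interval, and none of the 9 summits of the first did. The split was seen in the data and is given as a description without a test. How often a peak within a region parts endodermal from NE samples over all regions was not counted, so nothing is read from this split.

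**Figure D3:**
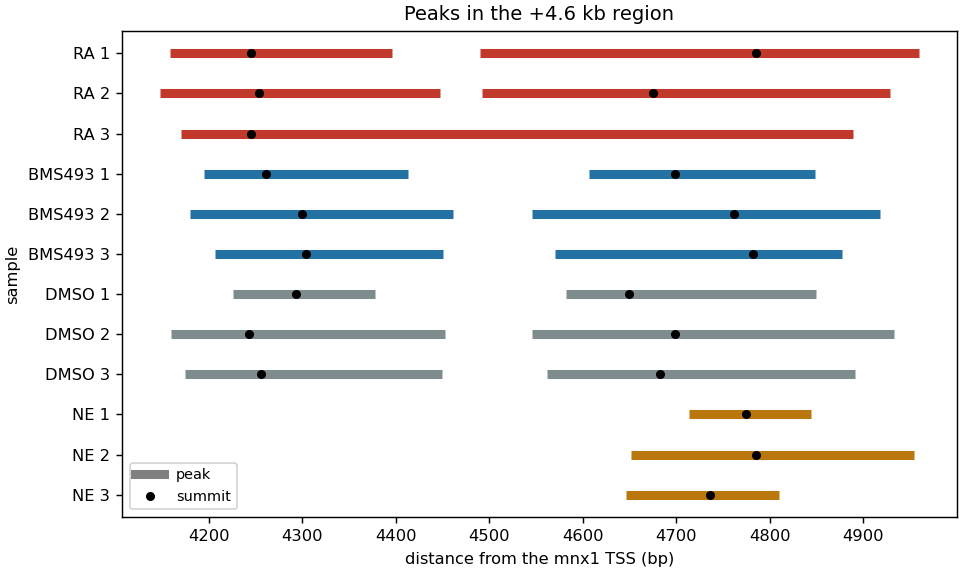
Extent of each peak (bar) and its summit (black point) in the RAR-site region, by distance from the mnx1 TSS in bp, for each of the 12 samples. The peak with its summit at 4243 to 4304 bp was found in every one of the 9 endodermal samples and in none of NE, and the peak with its summit at 4649 to 4785 bp occurs in all 4 conditions. The share of all regions with such a split was not counted.

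The local background around these peaks was examined as well. The fold enrichment of a peak sets its pileup against the local background that the peak caller took from the tags around the summit, so that the background can be recovered from both values. With no control library, these are tags of the same sample, those of the peak and its neighbours included. The local background is thus not independent of the heights, nor between regions close to each other. The local background is given here as a multiple of the genome background of that sample, with a floor of 1. At the RAR-site region it was 6.08, 4.27 and 3.82 in RA, 2.59, 4.81 and 3.35 in BMS493, 1.72, 4.86 and 3.69 in DMSO and 2.02, 2.31 and 1.92 in NE. Of the endodermal samples, DMSO replicate 1 alone lay under the NE samples. At the TSS region the multiple was 7.29, 5.07 and 4.49 in RA, 2.89, 5.57 and 3.71 in BMS493, 5.74 and 4.22 in DMSO and 2.67, 2.90 and 2.42 in NE. Higher values were not confined to these regions. At -12.2 kb the multiple was 1.83 to 3.20 in endoderm and 1.37 to 1.62 in the NE samples with a peak. At -7.6 kb it was 1.92 to 3.66 in endoderm and 1.58 to 1.99 in NE. At -24.0 and -19.4 kb the endodermal samples reached from under to over the NE range. At the nom1 TSS it stayed between 1.22 and 2.08 in endoderm and between 1.38 and 1.58 in NE.

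Over all endodermal samples against NE, the background at the RAR-site region differed by 0.83 on the log2 scale (SE 0.26, limma adjusted p = 0.0775), which did not pass, and none of the 5 members did beside 3.48% of all regions higher and 1.95% lower. At an unadjusted p under 0.05, 2 members were higher and 0 lower, beside 10.7% and 4.91% of all regions. These were the RAR-site region and the -7.6 kb region, which differed by 0.61 (SE 0.20, limma adjusted p = 0.0813). Without DMSO replicate 1 or BMS493 replicate 1 the adjusted p of the RAR-site region was 0.00645 or 0.0381. The exact two-sided permutation test over 9 endodermal and 3 NE samples gave p = 0.0455 at the RAR-site region (Benjamini-Hochberg adjusted p = 0.121 over 8 tests) and p = 0.0242 at the TSS region (adjusted p = 0.097, with 8 endodermal samples). The measure was added after the data had been seen. Relative to this background, which includes the tags of the peaks themselves, the RAR-site region was no longer called. Its fold enrichment differed by 0.31 on the log2 scale over all endodermal samples (limma adjusted p = 0.209) and by 0.29 in DMSO against NE (limma adjusted p = 0.483).

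**Figure D4:**
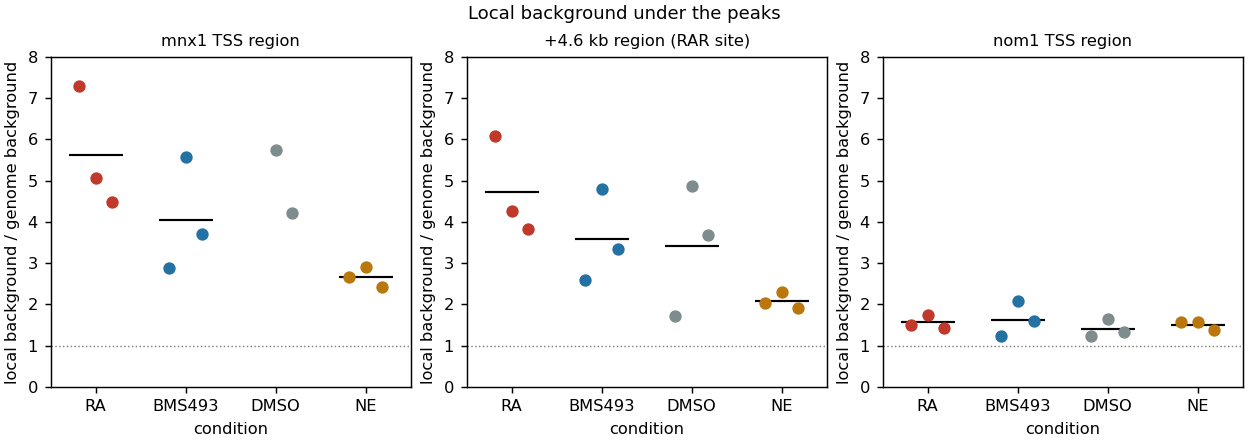
Local background at the summit as a multiple of the genome background of the sample (vertical axis, dotted line at 1) at the mnx1 TSS region, the RAR-site region and the nom1 TSS region, by condition, with the mean as a line where all 3 samples have a peak. The endodermal samples reach 7.29 at the mnx1 TSS and 6.08 at the RAR site, beside highest NE values of 2.90 and 2.31, but BMS493 replicate 1 (2.89) lies within the NE range at the TSS, DMSO replicate 1 (1.72) lies under it at the RAR site, and the nom1 TSS overlaps throughout.

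As a share of the whole list, the window held 14.8 ± 2.19 peaks per 100000 in the endodermal samples (SD, n = 9) and 9.93 ± 0.442 in NE (SD, n = 3). Every endodermal sample lay above every NE sample. The exact two-sided permutation test gave p = 0.00909, the smallest it can give here, and an adjusted p of 0.0727 over the 8 tests. This test pools RA, BMS493 and DMSO and ignores treatment, while NE came from DMSO embryos alone. For DMSO against NE, the exact two-sided permutation test gave p = 0.1 (adjusted p = 0.16). By condition the share was 16.9 ± 1.98 in RA, 14.7 ± 1.33 in DMSO and 12.7 ± 0.565 in BMS493 (SD, n = 3 each). DMSO replicate 1, with the shortest list, reached 15.6 from 8 peaks, and the part of list length was not tested. How many other windows part in this way was not counted, so nothing is read from this separation. The number of members called did not differ beyond its spread, with 12.6 ± 3.25 in endoderm and 11 ± 1.73 in NE (exact two-sided permutation p = 0.536).

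RA-treated endoderm was compared with DMSO and with BMS493 to ask where the locus responds to the RA signal. At the far upstream end, 3 neighbouring regions within ube3c were called in all RA samples and in no BMS493 sample. These lie at -46.3 kb (41984564 to 41984799), -43.4 kb (41987535 to 41987795) and -41.7 kb (41989157 to 41989530) from the mnx1 TSS. They are the only members that separate RA from BMS493 by calls, 3 of the 20 members called in either, beside 1.75% of all regions called in RA alone and 0.83% in BMS493 alone. Outside RA they were called in 1, 2 and 2 samples, so that they reached the 3 samples needed for the rank test only through RA. Their ranks are therefore given as a description, and the adjusted p is that of the fit to all regions without this filter.

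The -41.7 kb region had pileups of 19, 14 and 15 in RA, no peak in BMS493, 11 and 10 in DMSO replicates 2 and 3, and no peak in NE. Its rank averaged 71.1 ± 5.31 in RA and 0 in BMS493, a difference of 71.14 points (limma adjusted p = 0.0767 without the filter). DMSO lay between them, with a rank of 29.3 ± 25.4. The -43.4 kb region had pileups of 11, 16 and 13 in RA, no peak in BMS493, 7 in DMSO replicate 3 and 8 in NE replicate 2. Its rank averaged 60.4 ± 14.3 in RA and 0 in BMS493, a difference of 60.38 points (limma adjusted p = 0.0778 without the filter). The -46.3 kb region had pileups of 20, 13 and 8 in RA, no peak in BMS493, 6 in DMSO replicate 2 and none in NE, and its rank differed by 54.04 points (limma adjusted p = 0.146 without the filter). None of the 3 passed in this fit.

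The local background under these 3 upstream regions was 1.57 to 2.24 times the genome background in the RA samples and 1 to 1.04 times in the DMSO and NE samples that had a peak, and its part in the result was not tested.

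With the filter of 3 samples, the adjusted p of the -43.4 and -41.7 kb regions was 0.0326 and 0.0370, and 2 of 17 members were called higher and 0 lower, beside 0.625% and 0.131% of all regions. Nothing is read from this count, since both called members and 5 of the 17 in all were tested only through their RA calls. With the filter these calls also ended under the replicate block (limma adjusted p = 0.0554 and 0.0598), when a peak had to cover 50% of a region (0.409 and 0.0514) and with ranks of −log10(q) (0.0742 and 0.0701). They ended as well without any 1 of the NE samples (0.0571 to 0.0589 and 0.0653 to 0.0675) or the BMS493 samples (0.12 to 0.158 and 0.125 to 0.167), that at -43.4 kb also without DMSO replicate 2 (0.0607) or RA replicate 2 (0.0617), and that at -41.7 kb without any 1 of the RA samples (0.0539 to 0.0691). By height, limma called none of the 5 members called everywhere, beside 1.03% of all regions higher and 1.44% lower. At an unadjusted p under 0.05 it gave none of them either, beside 5.13% and 7.04% of all regions.

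**Figure D5:**
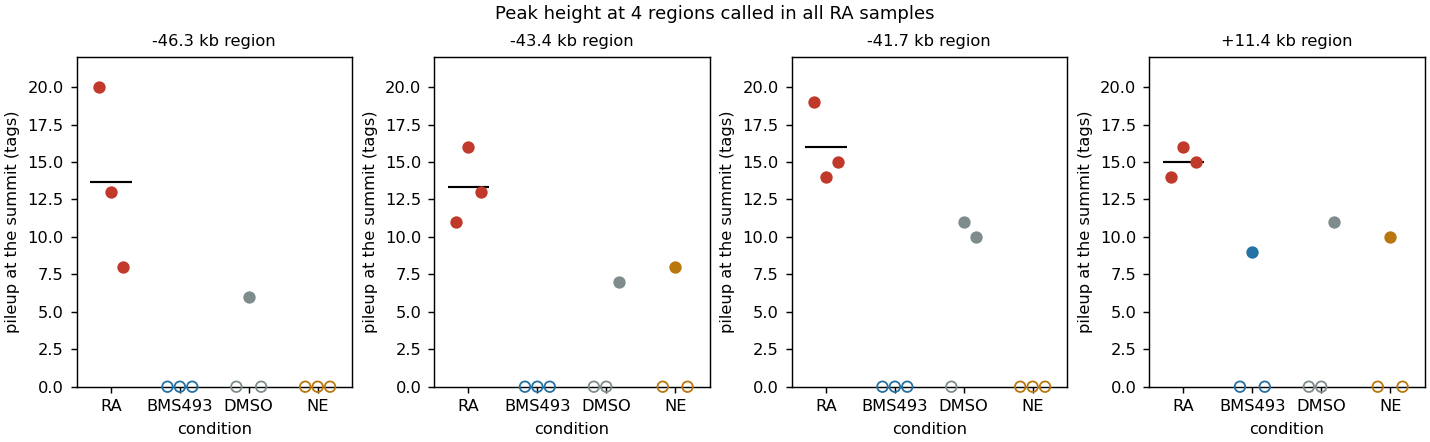
Pileup at the summit in tags (vertical axis) in each sample for the 3 upstream regions and for the +11.4 kb region in nom1, with the mean as a line where all 3 samples have a peak and an open circle at 0 where no peak was called. The RA samples lie between 8 and 20 tags, and BMS493 has no peak at the 3 upstream regions and 1 of 9 tags at +11.4 kb.

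Against DMSO the same regions, tested through their RA calls here too, did not pass. The values here are those with the filter of 3 samples. The smallest unadjusted p was that of the -43.4 kb region, which differed by 56.42 points (SE 12.46, limma adjusted p = 0.0715). Without RA replicate 1 the difference was 64.29 points (adjusted p = 0.0267), from which nothing is read, since the region was tested only through RA. The -46.3 and -41.7 kb regions differed by 52.96 points (adjusted p = 0.114) and 41.86 points (adjusted p = 0.458). Without the filter, limma called 0 of all 245646 regions higher for RA against DMSO. No member was called by limma for RA against DMSO, by rank or by height, or by presence, and at an unadjusted p under 0.05 limma gave 5 higher and 1 lower of 17 by rank, beside 4.44% and 2.54% of all regions, and none by height, beside 3.82% and 6.17%. By rank the count includes members tested only through RA. Over all regions 0.194% rose and 0.0362% fell by rank, 0.299% and 0.566% by height, and by presence 0.963% were in RA alone and 0.357% in DMSO alone. A change in scaling bears on heights here, since the median log2 pileup per 1000000 tags was 0.18 higher in RA than in DMSO and 0.22 higher than in BMS493, while the other shifts were at most 0.04 in size.

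A pair of further regions was called in all RA samples and in 1 BMS493 and 1 DMSO sample each. The -3.0 kb region (42027917 to 42028174) had pileups of 23, 24 and 18 in RA, 17 in BMS493 replicate 2, 16 in DMSO replicate 2, and 14, 18 and 13 in NE. In this case NE called the region too, in all 3 samples. The +11.4 kb region inside nom1 (42042215 to 42042621) had 14, 16 and 15 in RA, 9 in BMS493 replicate 2, 11 in DMSO replicate 3 and 10 in NE replicate 2. By rank these regions differed by 60.20 and 58.50 points for RA against BMS493 (limma adjusted p = 0.261 and 0.134) and by 60.89 and 51.87 points against DMSO (adjusted p = 0.393 and 0.343), which did not pass. The study's own comparison of read counts, at an FDR under 0.05, lists a peak assigned to nom1 as induced in RA against BMS493. Whether that peak is the +11.4 kb region was not examined. Peak lists hold no read counts, so the study's comparison could not be repeated here.

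The +0.9 kb region in the mnx1 gene (42031782 to 42032007) ran the other way. It had no peak in any RA sample, pileups of 22 and 16 in BMS493 replicates 2 and 3, 20 and 20 in DMSO replicates 2 and 3, and 10, 18 and 12 in NE. Its rank was lower in RA than in BMS493 by 53.14 points (limma adjusted p = 0.48) and lower than in DMSO by 54.34 points (adjusted p = 0.646), neither of which passed. The TSS region beside it and the RAR-site region did not pass for RA against DMSO or BMS493. At the RAR-site region the log2 height differed by 0.39 for RA against DMSO (SE 0.20, limma adjusted p = 0.555) and by 0.28 against BMS493 (SE 0.20, adjusted p = 0.709).

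No member passed a test for BMS493-treated endoderm against DMSO. The smallest unadjusted p belonged to the -41.7 kb region, which differed by -29.27 points (SE 15.05, limma adjusted p = 1). At an unadjusted p under 0.05, limma gave no member by rank, beside 0.786% of all regions higher and 0.989% lower. By height it gave none either, beside 1.1% and 1.76%, and no member differed by presence. In the whole series, at an adjusted p under 0.05, limma called 1 region lower by rank, which is 0.000787%, and none by height. By presence, 0.153% were in BMS493 alone and 0.161% in DMSO alone.

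The -1.9 kb region (42028964 to 42029287) was called in all samples but NE replicate 3, with 27, 26 and 15 tags in RA, 13, 22 and 17 in BMS493, 7, 24 and 17 in DMSO, and 13 and 14 in NE, and its rank difference of 33.54 points over all endodermal samples against NE did not pass (limma adjusted p = 0.167). The remaining members were called in few samples. The -27.8 kb region had 7 tags in each of RA replicates 1 and 2 and DMSO replicate 3. Those at 17.4, 17.8 and 19.8 kb were called in 2, 5 and 4 samples with at most 12 tags. Of the 4 called in a single sample, the one at 9.2 kb had 20 tags in RA replicate 1, and the others, 1 just beyond the nom1 TSS and a pair at 42.0 and 42.2 kb, had 6 to 10 tags. No member lay between the first of these and the pair. The nearest regions outside the window lie at -57.2 kb, called in 2 RA, 1 BMS493, 3 DMSO and 0 NE samples, and at 57.6 kb, called in 1 RA, 0 BMS493, 1 DMSO and 2 NE samples.

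The locus was set beside windows of the same size around gata6, hnf1ba, hnf1bb and insm1b, which encode a zinc finger factor, a pair of homeodomain factors and a further zinc finger factor of the foregut and pancreas. These held 26, 33, 14 and 30 regions. For all endodermal samples against NE, the number of tested regions that rose and fell was 1 and 0 of 17 at mnx1, 4 and 0 of 23 at gata6, 5 and 0 of 20 at hnf1ba, 1 and 1 of 10 at hnf1bb and 3 and 3 of 17 at insm1b. Of all regions tested, 3.59% rose and 8.32% fell. Regions of these windows could reach the 3 samples needed for the test through endodermal calls, so nothing is read from these counts. Differences between the loci were not tested.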

How the data were processed

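ATAC-seq libraries of 12 samples were analysed as deposited peak lists. Per the labels and the study's methods, the authors aligned reads to Zv9 with Bowtie2 and ran MACS2 (2.1.1.20160309) on every sample by itself, with no control library, tags shifted by 40 and extended to 80 bp, a single tag (1) kept per position and q under 0.05. Of the deposited columns, the pileup (a signal in tags, unscaled), the fold enrichment (a ratio to the local background) and the −log10 q-value were used.

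The members and the lists of comparison loci were chosen with earlier results of these data known. Conditions were taken from the labels, from which the headers of the NE lists differ in their replicate numbers. Gene positions and the RAR interval are those of the study's tables, and neighbouring genes were named with them. Peaks were merged in Python 3.11.15 with numpy 2.4.6 and pandas 2.3.3 and checked with bedtools 2.31.1. limma 3.58.1 in R 4.3.3, with trend and robust options, was fitted to all 12 samples, by percentile rank over 127026 regions called in at least 3 samples and by median-centred log2 pileup over 28445 regions called in all, with Benjamini-Hochberg adjustment over all regions and a threshold of 0.05. Presence means called in every sample of one side and in none of the other. Single values were compared by exact permutation tests in scipy 1.17.1, which give no p under 0.1 for 3 against 3 samples. Those over all endodermal samples pool the treatments. The fits were also run on values simulated with normal spread and with changes planted in RA. Such values do not copy how the threshold of the peak caller leaves regions without a peak, so nothing is read from that run.

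The local background was solved from (pileup + 1) / (local background + 1) = fold enrichment. Named regions are the TSS and RAR-site regions, those that passed a test or differed by presence, the smallest unadjusted p by rank per comparison, those called in all samples and those nearest to the window ends. The -3.0, +0.9, +11.4 and -1.9 kb regions were named after their values were seen. Sequence and motifs were not analysed here.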

Additional observations from a re-analysis of the deposited data

How the results depend on the processing

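The -12.2 kb region kept its call under every other processing choice tried, for DMSO and for all endodermal samples against NE, and the number of members was 18 to 21 with shorter lists, a stricter q-value or wider merging, beside 22. With every list shortened to the same length, 2 members were higher by rank in DMSO against NE, 3 in all endodermal samples against NE and 3 in RA against DMSO, and 1 was present on the first side alone in each of these comparisons. Over all 67431 regions tested then, 4505, 5891 and 1059 were higher by rank. The member count for RA against DMSO can include members tested only through RA, so nothing is read from it. The rank of the TSS region in DMSO against NE then differed by 9.33 points, and without each sample in turn by -29.94 to 14.18, with the highest value without DMSO replicate 1. When a peak had to cover 50% of a region, 2 members were higher by rank and 2 by presence in DMSO and in all endodermal samples against NE, and 0 by rank in RA against BMS493. Over all 98522 regions tested then, 1280, 2216 and 782 were higher by rank in these comparisons. The NE peaks of the RAR-site and -12.2 kb regions are too narrow to cover 50% of them, so their calls then follow from the setting. With ranks of −log10(q), or with no filter on the number of samples, the count of members higher in RA against BMS493 was 0 as well. Over all regions it was 519 of 127026 and 173 of 245646 in these settings. At a −log10(q) of at least 3, 1 member was present in RA and not in DMSO. By height, 0 members were higher in DMSO against NE per 1000000 tags without centring, and 0 in DMSO or in all endodermal samples against NE by fold enrichment. Of all 28445 regions, 857 were higher without centring, and 1092 and 1780 by fold enrichment.

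Leaving out 1 sample at a time, the number of members higher by rank ranged over 0 to 2 in DMSO against NE (2 without DMSO replicate 1), 1 to 4 in all endodermal samples against NE (4 without DMSO replicate 1, 2 without NE replicate 2), 0 to 1 in RA against DMSO (1 without RA replicate 1 or 3) and 0 to 2 in RA against BMS493. Over all 127026 regions these numbers ranged over 1387 to 5334, 3020 to 6883, 0 to 600 and 5 to 1325. Nothing is read from the member counts for RA against DMSO or BMS493, with 5 of 17 members tested only through RA. By height the number of members was 0 to 1 in DMSO against NE, beside 1557 to 2122 of all 28445 regions. By presence, 0 to 1 members were higher and 0 to 1 lower in DMSO against NE, 0 to 2 higher and 0 to 1 lower in RA against DMSO, 0 to 1 lower in BMS493 against DMSO, and 3 to 5 higher and 0 to 1 lower in RA against BMS493 (5 without BMS493 replicate 2). Presence over all regions was not counted in these settings or those above, so nothing is read from presence there. The share of peaks in the window was higher in endoderm in each setting run, and merging does not bear on it, since it counts peaks. The cause of these changes was not tested.

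Rank deviations of same-numbered samples across conditions correlated at -0.154 to 0.206 (mean 0.007). NE headers bear other numbers, so pairing is not excluded. With the replicate block, 2 members were higher by rank in all endodermal samples against NE and 0 in RA against BMS493. Over all 127026 regions, these numbers were 4511 and 379. The second member was the RAR-site region (18.14 points, limma adjusted p = 0.0344).

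The lowest pileup listed was 4 to 6 tags per sample, and whether depth set the missing calls of low members was not tested. Ranks set to 0 where no peak is listed make the differences at partly called regions depend on that threshold.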
